A study of Sus scrofa with 4 samples.

Results

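Genes of the extracellular matrix, of the proteases that cut it, of integrins and of cell junctions were followed in porcine M II oocytes with and without SIRT6 inhibition. The members were taken by name, as every symbol of the counts table that starts with the name of an ADAM, MMP, TIMP, collagen, laminin, integrin, SPARC, versican, claudin, cadherin, protocadherin, FAT, connexin, occludin, F11R or catenin gene, together with FN1, DCN, LUM and BGN where listed and other junction genes. This gave 78 of the 4381 symbols in the table. RefSeq lists 20663 protein-coding pig genes, so each family was followed only in the part that the table lists. At least 1 count was found for 51 of the 78 genes, and 42 passed the filter on low counts and were tested. Control oocytes and SIRT6-inhibited oocytes both came from cumulus-oocyte complexes of abattoir ovaries and were matured in vitro for 42 to 44 h to the M II stage, the SIRT6-inhibited group with 100 μM of the SIRT6 inhibitor SIRT6-IN-1. RNA was sequenced from 2 libraries in each group. The methods give 100 oocytes per group, and the sources used here do not say how these were divided between libraries or how many animals or cultures they came from, so p-values measure only the spread between these libraries, which may be technical. The sample labels name Smart-seq2 amplification followed by a random-primed library kit, the methods name column extraction and the same kit with no Smart-seq2 step, and which applies is not known, though both end in PCR.

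Matrix proteins such as collagens, laminins and proteoglycans form the scaffold around cells, and metalloproteases of the ADAM, ADAMTS and MMP families cut it or release proteins from the cell surface, while TIMP proteins block them. Integrins anchor cells to the matrix, claudins and occludin seal tight junctions, cadherins hold neighbouring cells together through catenins, and connexins form gap junctions. In the ovarian follicle the oocyte is joined to its cumulus cells by gap and adherens junctions, and a versican-containing matrix that ADAMTS1 cleaves forms among cumulus cells as they expand.

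Counts summed over the table to 4646129 in control library 1, 3405960 in control library 2, 3239200 in SIRT6-inhibited library 1 and 4972602 in SIRT6-inhibited library 2. The 78 genes together took 1.06% and 1.09% of the counts of the controls and 1.09% and 1.13% of those after SIRT6 inhibition. In the control libraries 45 and 45 of them were detected, against 35 and 36 in the SIRT6-inhibited libraries, so the groups did not overlap in this number. Over the whole table, 2411 and 2689 genes were detected in the controls and 2277 and 2320 after SIRT6 inhibition, which did not overlap either. The library with the most counts, SIRT6-inhibited library 2, was not the one with the most genes. Of the genes detected in control library 2, 11.2% had under 10 counts, against 4.89% in control library 1. In SIRT6-inhibited libraries 1 and 2 this share was 3.51% and 4.27%. Values below are normalized CPM, that is, counts scaled to 1e6 per library after TMM factors. A transcript under 3 counts could not be told from 0, which corresponds to 0.648 and 0.845 normalized CPM in the controls and 0.932 and 0.625 after SIRT6 inhibition. This floor takes in counting error and no other source of error, as copies made by amplification are not separate molecules. Folds given below as at least a value rest on this floor and do not allow for spread between libraries. Such spread was seen within groups, as for MMP1 with 83 and 0 counts in the controls and SPARC with 29 and 0 after SIRT6 inhibition.

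**Figure D1:**
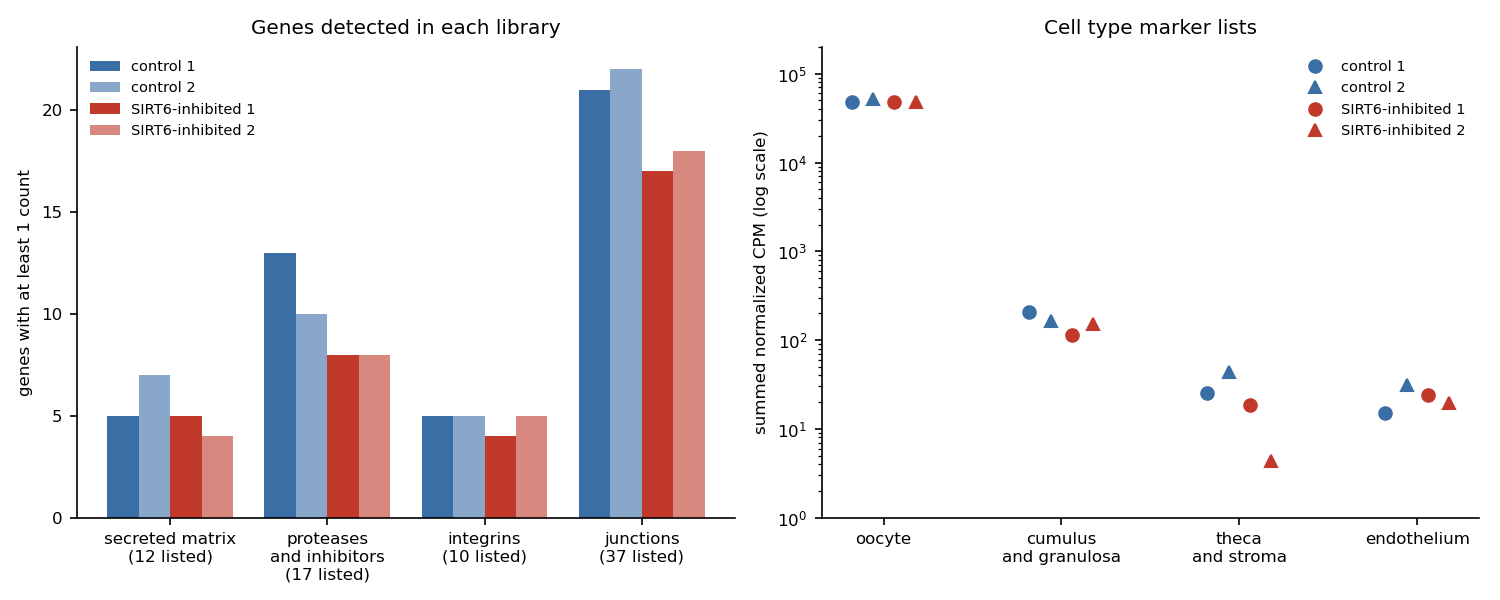
Left, the number of genes with at least 1 count in each library for each class of genes; right, the summed normalized CPM of cell type marker lists on a log scale, with 1 symbol per library. Fewer junction genes were detected in the SIRT6-inhibited libraries (17 and 18) than in the controls (21 and 22), and oocyte markers were far above the other lists in all 4 libraries.

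Among the 42 tested genes, the quasi-likelihood test of edgeR gave 6 an unadjusted p-value under 0.05, 4 of them lower and 2 higher in SIRT6-inhibited oocytes. These were CLDND1, ITGB5, MMP2 and CLDN12 on the lower side and ADAMTS10 and FAT1 on the higher side. Of all 2387 tested genes, 9.05% had such a p-value, 5.99% on the lower and 3.06% on the higher side, against 14.3% of the tested matrix and adhesion genes. Over all tested genes the number went from 216 to 133 without control library 1 and to 104 without control library 2. After Benjamini-Hochberg adjustment in edgeR, 0 of the 42 passed 0.05, and 0% of all tested genes did. DESeq2's Wald test, with 7 of the 42 at an unadjusted p-value under 0.05, passed ADAMTS10, CLDND1 and FAT1 after adjustment, while limma-voom had 6 and 0. Over all tested genes DESeq2 had 237 (9.93%) at an unadjusted p-value under 0.05 and 37 after adjustment, and limma-voom had 231 (9.68%) and 0. When SIRT6-inhibited library 1 or library 2 was left out, ADAMTS10 and CLDND1 passed adjustment in edgeR, among 77 and 17 of all tested genes, and without either control library 0 did. A fit without a SIRT6-inhibited library has 1 library in that group and takes the spread from the controls alone, so these passes add no support. No overlap between groups was seen for 18 of the 42 genes, 10 lower and 8 higher, where 40.1% of all tested genes did not overlap, 22.2% lower and 17.9% higher. The median log2 fold change of the 42 genes was -0.11, beside -0.04 for all tested genes, with 25 genes below 0 and 17 above. This median turned to 0.063 without SIRT6-inhibited library 1 and was -0.020 without control library 1. It was 0.025, over 28 genes, where every library had to hold 10 counts. As these shares lie near those of the whole table, the account below turns to the single genes and their classes.

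**Figure D2:**
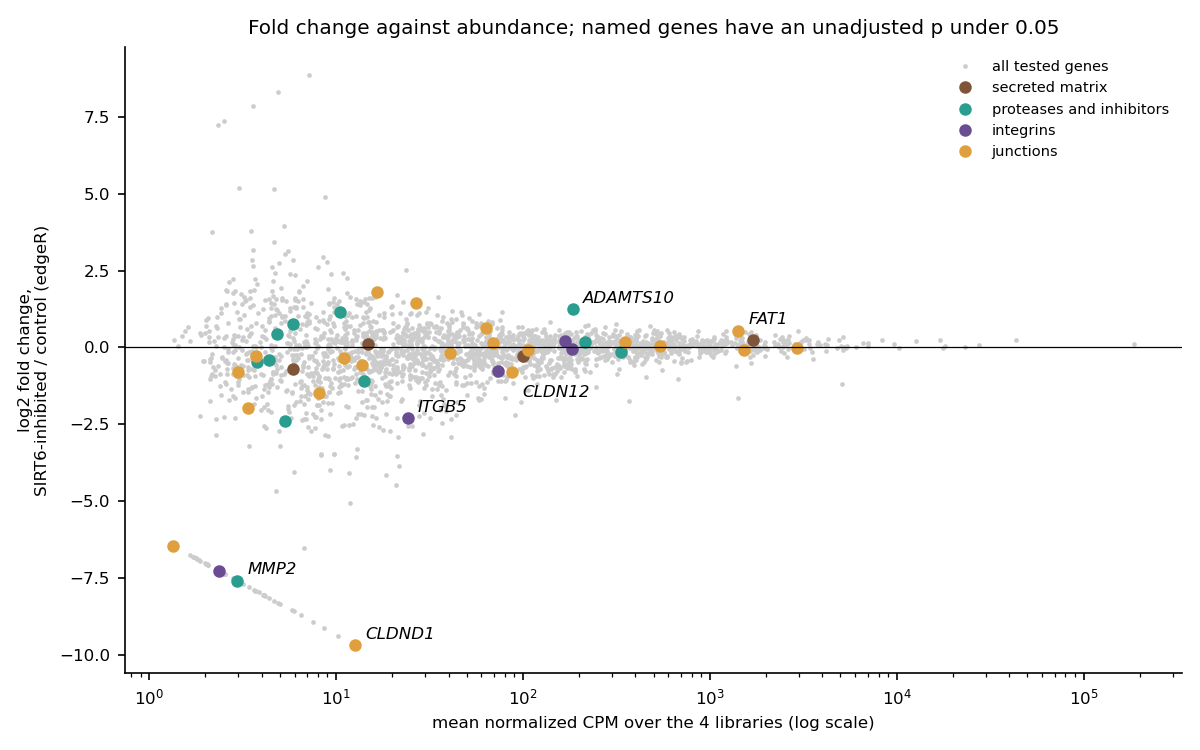
Log2 fold change of SIRT6-inhibited over control oocytes against mean normalized CPM for all 2387 tested genes (grey) and for the classes of matrix and adhesion genes (colours), with names for the 6 that had an unadjusted p-value under 0.05. The line of points at the lower left holds genes with 0 counts in both SIRT6-inhibited libraries, such as CLDND1 and MMP2, whose fitted fold change depends on the prior count of the fit and is not a measured size.

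Secreted matrix genes numbered 12, of which 8 were detected and 4 tested. LAMC1, the laminin gamma 1 chain of basement membranes, had 1492 and 1648 normalized CPM in the controls and 1821 and 1868 after SIRT6 inhibition. Both SIRT6-inhibited libraries lay above both controls, by a log2 fold change of 0.23 (SE 0.11, edgeR adjusted p = 0.583). VCAN, the proteoglycan versican, had 82.7 and 137 normalized CPM in the controls and 38.8 and 142 in SIRT6-inhibited libraries 1 and 2. The SIRT6-inhibited libraries thus held both the lowest and the highest value, and the log2 fold change of -0.27 (SE 0.59) went from -1.49 to 0.38 depending on which library was left out. In DESeq2 and in limma-voom, LAMC1 had an unadjusted p-value under 0.05. Its log2 fold change was 0.16 without control library 1 and 0.30 without control library 2. COL1A2, a chain of type I collagen, had 17.1 and 11.3 normalized CPM in the controls and 15.5 and 15.4 in the SIRT6-inhibited libraries, within the range of the controls. SPARC, a matrix glycoprotein that binds collagen, had 28 and 30 counts in the controls, 29 counts in SIRT6-inhibited library 1 and 0 counts in library 2. With these 4 genes the median log2 fold change of the class was -0.07 (-0.22 to 0.19 as libraries were left out), and edgeR gave 0 of them an unadjusted p-value under 0.05.

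The other detected matrix genes had 0 counts in at least 2 of the 4 libraries. DCN, the proteoglycan decorin, had 12 and 3 counts in the controls and 0 in both SIRT6-inhibited libraries, so that control library 2 was itself at the floor. Type V collagen appeared in scattered libraries, with 0 and 7 counts of COL5A1 in the controls, 35 in SIRT6-inhibited library 1 and 0 in library 2. COL5A2 had 8 counts in control library 2 and COL10A1 had 10 counts in SIRT6-inhibited library 2, and both had 0 elsewhere. COL3A1, COL5A3, LUM and SPARCL1 had 0 counts in all 4 libraries.

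Among 17 proteases and inhibitors, 13 were detected and 11 tested, with a median log2 fold change of -0.14. This median turned to 0.26 without control library 1 and 0.11 without SIRT6-inhibited library 1, and was 0.027 where every library had to hold 10 counts, -0.41 without the filter and -1.20 in limma-voom. ADAMTS10, a secreted metalloprotease known for its part in fibrillin microfibrils, had 485 and 402 counts in the controls and 865 and 1208 after SIRT6 inhibition. In normalized CPM these were 105 and 113 against 269 and 252, so both SIRT6-inhibited libraries were well above both controls, and the gap exceeded the spread within either group. The group means were 109 ± 5.97 and 260.2 ± 12.1 normalized CPM (SD, n = 2 each), a 2.39-fold difference with a log2 fold change of 1.26 (SE 0.21, edgeR adjusted p = 0.460). The gene was singled out with its result in these data already known, so the values here describe it and add no support. By p-value it was the 1st of the 1126 tested genes with a log2 fold change above 0. Its log2 fold change stayed between 1.20 and 1.31 when each library was left out in turn. The gene lies on chromosome 2 at 70734234-70751205 in the RefSeq annotation of the pig assembly Sscrofa11.1.

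Values of the other tested genes of the ADAM and ADAMTS families follow. ADAM10, a membrane protease that sheds surface proteins, had 374 and 329.6 normalized CPM in the controls and 316 and 323 after SIRT6 inhibition. Its SIRT6-inhibited libraries lay just below the controls (log2 fold change -0.14, SE 0.16, edgeR adjusted p = 0.956; -0.049 without control library 1 and -0.23 without control library 2). ADAM17, the sheddase of tumour necrosis factor and EGF-like ligands, had 212 and 190.0 normalized CPM in the controls and 241 and 216 in SIRT6-inhibited oocytes. Here the SIRT6-inhibited libraries lay just above the controls (log2 fold change 0.19, SE 0.20, edgeR adjusted p = 0.956; 0.11 to 0.26 as libraries were left out). ADAM3A, a gene of a sperm protein family with close copies that may share reads, had 52 and 6 counts in the controls, 34 in SIRT6-inhibited library 1 and 89 in library 2. Control library 1 and SIRT6-inhibited library 1 were alike, control library 2 was low and SIRT6-inhibited library 2 high, so that its log2 fold change of 1.16 had an SE of 1.32, ran from 0.37 to 3.08 as libraries were left out, and the groups overlapped. ADAMTS1, the protease of the expanding cumulus matrix, had 18 and 15 counts in the controls, 36 in SIRT6-inhibited library 1 and 0 in library 2. ADAMTS20 had 14 counts in control library 1 alone, and ADAM2 had 0 in all 4 libraries. Of the 7 genes of the ADAM and ADAMTS families in the table, 5 were tested and edgeR gave 1, ADAMTS10, an unadjusted p-value under 0.05. Their median log2 fold change of 0.45 is the value of ADAMTS1, which ran from -7.14 to 1.46 as libraries were left out and was -2.46 in limma-voom. Whether ADAMTS10 differed from the other members by more than error was not tested.

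**Figure D3:**
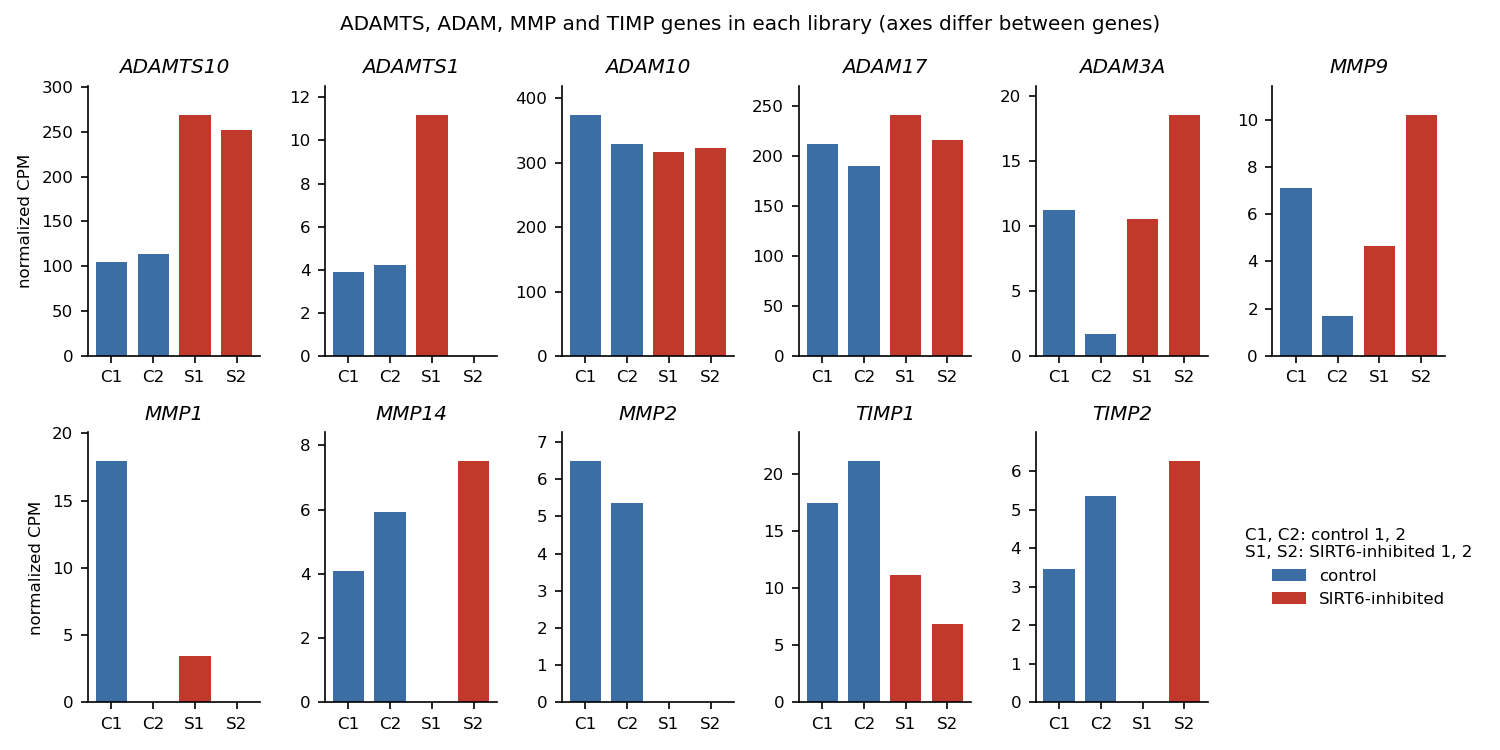
Normalized CPM of the 11 tested ADAMTS, ADAM, MMP and TIMP genes in control libraries 1 and 2 (C1, C2) and SIRT6-inhibited libraries 1 and 2 (S1, S2), with 1 bar per library and an axis of its own for each gene. ADAMTS10 had 105 and 113 against 269 and 252 normalized CPM, while ADAM10 and ADAM17 were close between groups, and several low genes had no bar in 1 or both SIRT6-inhibited libraries.

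The 8 matrix metalloprotease genes in the table had few or no counts in these oocytes. MMP2, the gelatinase that cuts type IV collagen, had 30 and 19 counts in the controls and 0 in both SIRT6-inhibited libraries. On counting error alone it was at least 7.60-fold lower than the control mean, against the floor of 3 counts per library (edgeR adjusted p = 0.534). Its unadjusted p-value was under 0.05 in 3 of the 6 other fits that kept all libraries. MMP14, the membrane protease that activates MMP2, had 19 and 21 counts in the controls, 0 in SIRT6-inhibited library 1 and 36 in library 2. MMP9, a second gelatinase, had 33 and 6 counts in the controls, 15 in SIRT6-inhibited library 1 and 49 in library 2, with overlap. MMP1, a collagenase, had 83 and 0 counts in the controls and 11 and 0 after SIRT6 inhibition, so each group held a library at 0. MMP3 had 15 counts in control library 1 and 0 elsewhere, and MMP7, MMP12 and MMP20 had 0 in all libraries. MMP1, MMP3 and MMP12 lie next to one another on chromosome 9 in Sscrofa11.1, with gaps of 26764 and 19630 bp between neighbours.

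The 2 TIMP genes in the table, inhibitors of metalloproteases, were low as well. TIMP1 had 17.5 and 21.1 normalized CPM in the controls and 11.2 and 6.87 after SIRT6 inhibition. Both SIRT6-inhibited libraries were below both controls, with a log2 fold change of -1.10 and an SE of 0.93 that nearly equals it (edgeR adjusted p = 0.906). TIMP2 had 16 and 19 counts in the controls, 0 in SIRT6-inhibited library 1 and 30 in library 2, the same pattern as MMP14.

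Integrins numbered 10 in the table, of which 6 were detected and 5 tested, with a median log2 fold change of -0.76. This median is the value of ITGB1, and it was -0.22 without control library 1, -1.26 without control library 2 and -0.40 under either other filter. ITGB5, the beta chain that pairs with the alpha V integrin to bind vitronectin, had 32.0 and 48.4 normalized CPM in the controls and 9.63 and 6.66 after SIRT6 inhibition. The raw counts were 148 and 172 against 31 and 32, so each control library was above both SIRT6-inhibited libraries. The means were 40.2 ± 11.6 and 8.15 ± 2.10 normalized CPM (SD, n = 2 each), which gave a log2 fold change of -2.30 (SE 0.72, edgeR adjusted p = 0.477). Without control library 2 it was -1.97 with an unadjusted p-value over 0.05 (edgeR adjusted p = 0.901). ITGB8, another partner of alpha V, had 14 and 23 counts in the controls and 0 in both SIRT6-inhibited libraries. On counting error alone it was at least 6.10-fold lower against the floor of 3 counts per library (edgeR adjusted p = 0.551). This bound leans on control library 2, at 6.47 normalized CPM against 3.02 in control library 1, and DESeq2 gave ITGB8 an unadjusted p-value under 0.05. ITGB1, the beta chain shared by most matrix receptors, had 130.0 and 54.6 normalized CPM in the controls and 60.9 and 48.1 after SIRT6 inhibition. Only control library 1 stood apart, and without it the log2 fold change of -0.76 (SE 0.46) became -0.0070, while without control library 2 it was -1.26. All 3 tested beta chains thus had a log2 fold change below 0, as had 1261 of all 2387 tested genes, and beta chains were not tested against alpha chains.

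ITGAV, the alpha V chain, had 182 and 128 normalized CPM in the controls and 214 and 147 after SIRT6 inhibition. The groups overlapped, with a log2 fold change of 0.22 (SE 0.29, edgeR adjusted p = 0.969) that ran from -0.073 to 0.49 as libraries were left out. ITGA2, a collagen-binding chain, had 161 and 209 normalized CPM in the controls and 165 and 196 after SIRT6 inhibition, and the SIRT6-inhibited values lay inside the range of the controls. ITGAL had 11 counts in SIRT6-inhibited library 2 and 0 elsewhere. ITGA2B, ITGB2, ITGB3 and ITGB6, chains of platelets, leukocytes and epithelia, had 0 counts in all 4 libraries.

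**Figure D4:**
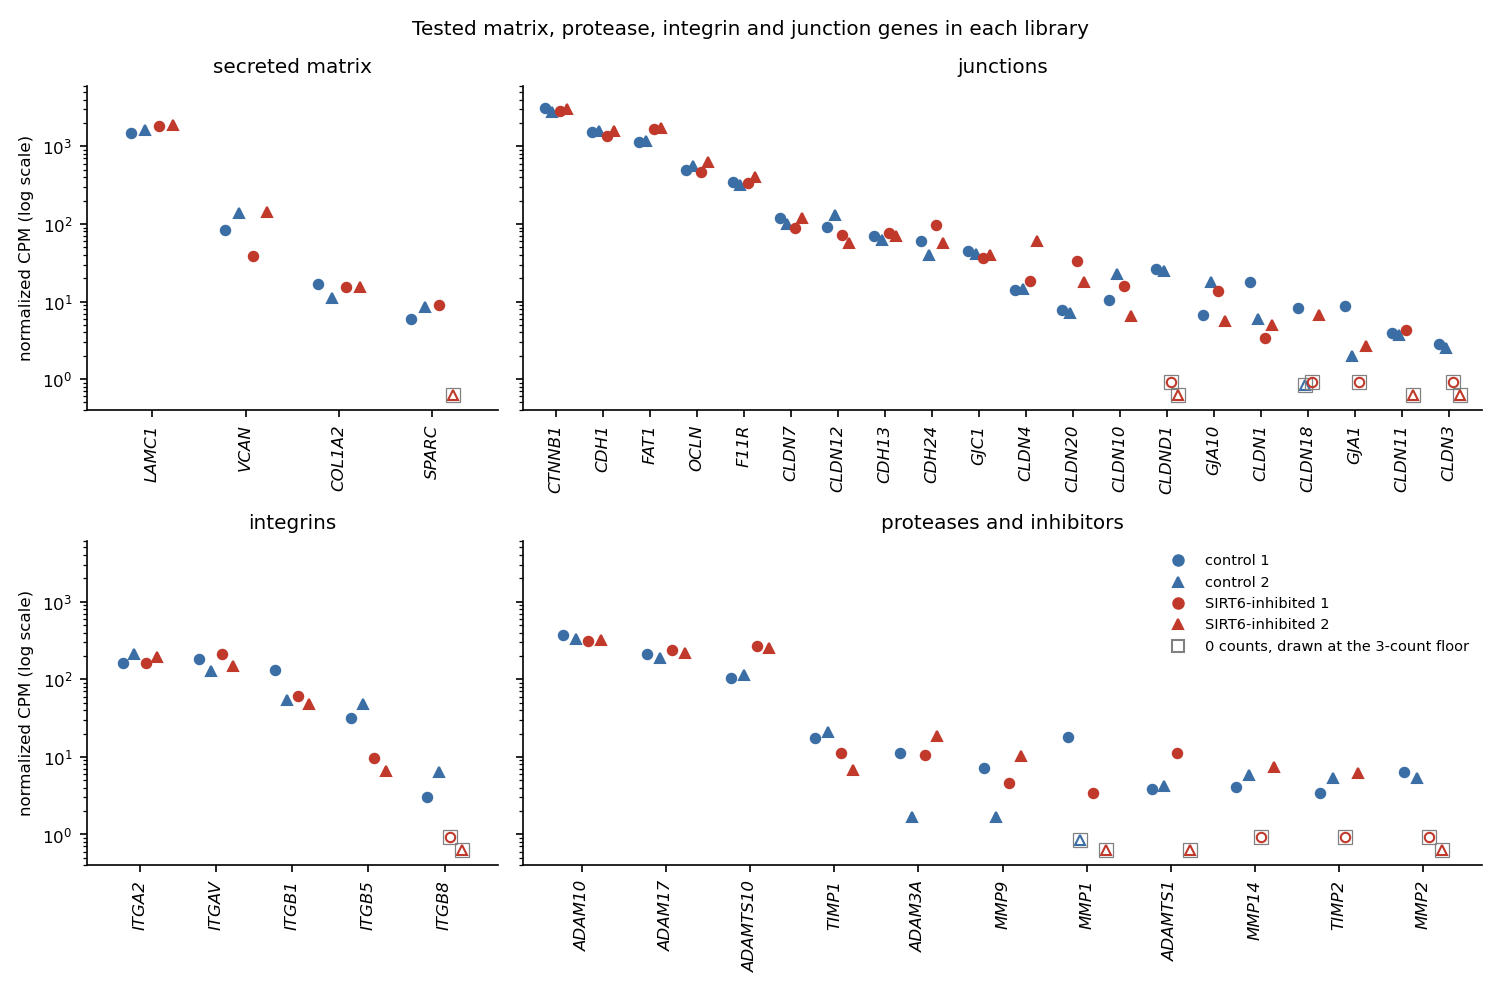
Normalized CPM on a log scale of the tested genes of each class in each library, with 1 junction gene left out, and with circles and triangles for libraries 1 and 2 of a group and open symbols in squares for 0 counts, drawn at the floor of 3 counts. Values are to be read between libraries of a gene, since transcript length was not taken into account; ADAMTS10, FAT1 and CLDN20 lay higher and ITGB5, CLDN12 and CLDND1 lower in both SIRT6-inhibited libraries.

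Junction genes were the largest class, with 37 listed, 23 detected and 21 tested, and a median log2 fold change of -0.09, which turned to 0.040 without SIRT6-inhibited library 1. Tight junction and claudin genes made up 25 of them. CLDND1, a four-pass membrane protein related to claudins, had 121 and 87 counts in the controls and 0 counts in both SIRT6-inhibited libraries. The controls were close to each other at 26.1 and 24.5 normalized CPM, and both SIRT6-inhibited libraries were under the floor. The control mean was 25.3 ± 1.16 normalized CPM (SD, n = 2). On counting error alone, CLDND1 was at least 32.5-fold lower than this mean, against a floor of 3 counts per library (edgeR adjusted p = 0.460). By p-value it was the 2nd of the 1261 tested genes with a log2 fold change below 0. CLDND1 lies on chromosome 13 at 160397444-160405675 in Sscrofa11.1.

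CLDN12, a claudin known for calcium passage between epithelial cells, had 92.4 and 130.1 normalized CPM in the controls and 71.1 and 56.4 after SIRT6 inhibition. Both SIRT6-inhibited libraries were below both controls, with a log2 fold change of -0.80 (SE 0.32, edgeR adjusted p = 0.534). Without control library 2 the log2 fold change was -0.54 and without SIRT6-inhibited library 2 it was -0.64, and neither of these fits nor DESeq2 kept the unadjusted p-value under 0.05. CLDN20 went the other way, with 7.77 and 7.04 normalized CPM in the controls and 33.6 and 18.1 in the SIRT6-inhibited libraries. Each SIRT6-inhibited library was above both controls, at a log2 fold change of 1.80 (SE 0.88, edgeR adjusted p = 0.598). CLDN3 and CLDN4, close relatives that bind the same bacterial enterotoxin, are neighbours on chromosome 3 with a gap of 19609 bp in Sscrofa11.1. CLDN3 had 13 and 9 counts in the controls and 0 in both SIRT6-inhibited libraries. On counting error alone it was at least 3.43-fold lower against the floor of 3 counts per library. CLDN4 had 65 and 51 counts in the controls, 60 in SIRT6-inhibited library 1 and 286 in library 2. Its log2 fold change of 1.46 (SE 0.76) thus rested on SIRT6-inhibited library 2 and was 0.39 without it, whereas without library 1 it was 2.07. Reads that fit related claudin genes cannot be assigned with certainty, since the counting rule is not given in the sources used here.

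Among the 13 tested claudin and tight junction genes, groups were apart for 6, of which 4 were lower and 2 higher in SIRT6-inhibited oocytes. On the log2 scale the median for these 13 was -0.29, and edgeR put 2 lower and 0 higher under an unadjusted p-value of 0.05. OCLN, F11R and CLDN7 overlapped between groups, and F11R and CLDN7 were named after their values were seen. OCLN, which encodes occludin, had 503 and 559 normalized CPM in the controls and 474 and 621 in SIRT6-inhibited oocytes. The groups overlapped and the log2 fold change was 0.05 (SE 0.17, edgeR adjusted p = 0.992), from -0.16 to 0.23 as libraries were left out and -0.017 with library totals only. F11R, a junctional adhesion molecule gene, had a log2 fold change of 0.16 (SE 0.17). CLDN7 had 118 and 100.5 normalized CPM in the controls and 88.5 and 119 after SIRT6 inhibition, also with overlap. The low claudins CLDN1, CLDN10, CLDN11 and CLDN18 had between 0 and 83 counts per library, and 10 claudin genes had 0 in all 4 libraries.

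FAT1, a giant cadherin that acts in cell polarity and adhesion, had 5210 and 4211 counts in the controls and 5332 and 8258 in the SIRT6-inhibited libraries. After scaling these were 1125 and 1185 normalized CPM against 1657 and 1719.9, so the groups did not overlap and libraries of a group were close. The means were 1155 ± 42.8 and 1688 ± 44.8 normalized CPM (SD, n = 2 each), a 1.46-fold difference with a log2 fold change of 0.55 (SE 0.11, edgeR adjusted p = 0.460). It was the 2nd of the 1126 tested genes with a log2 fold change above 0 by p-value, and its log2 fold change stayed between 0.51 and 0.58 in fits that dropped a library. Values of other adherens junction genes follow. CDH1, which encodes E-cadherin, had 1549 and 1584 normalized CPM in the controls and 1368 and 1583 after SIRT6 inhibition. Only SIRT6-inhibited library 1 was lower, and the log2 fold change was -0.09 (SE 0.12, edgeR adjusted p = 0.977), turning to 0.015 without that library. CTNNB1, which encodes beta-catenin, the cytoplasmic partner of cadherins and a transducer of Wnt signals, had 3159.7 and 2739.6 normalized CPM in the controls and 2858 and 3033 in SIRT6-inhibited oocytes. Both SIRT6-inhibited values lay between the controls, with a log2 fold change of -0.0020 (SE 0.11), which took either sign, from -0.10 to 0.10, as libraries were left out. CDH13 and CDH24 had log2 fold changes of 0.15 (SE 0.31) and 0.62 (SE 0.43), with CDH13 just higher in both SIRT6-inhibited libraries and CDH24 overlapping, and the vascular and mesenchymal cadherins CDH5 and CDH11 had 0 counts in all libraries.

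The 4 connexin genes in the table were low in all libraries. GJA1, connexin 43 of cumulus and granulosa cells, had 41 and 7 counts in the controls and 0 and 13 after SIRT6 inhibition. The groups overlapped, with control library 1 the highest. GJC1 had 45.1 and 41.4 normalized CPM in the controls and 36.0 and 39.6 after SIRT6 inhibition, a log2 fold change of -0.19 (SE 0.46, edgeR adjusted p = 0.986). GJA10 ranged from 27 to 64 counts with overlap, and GJA4, the connexin 37 gene known from oocytes, had 0 counts in all 4 libraries.

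**Figure D5:**
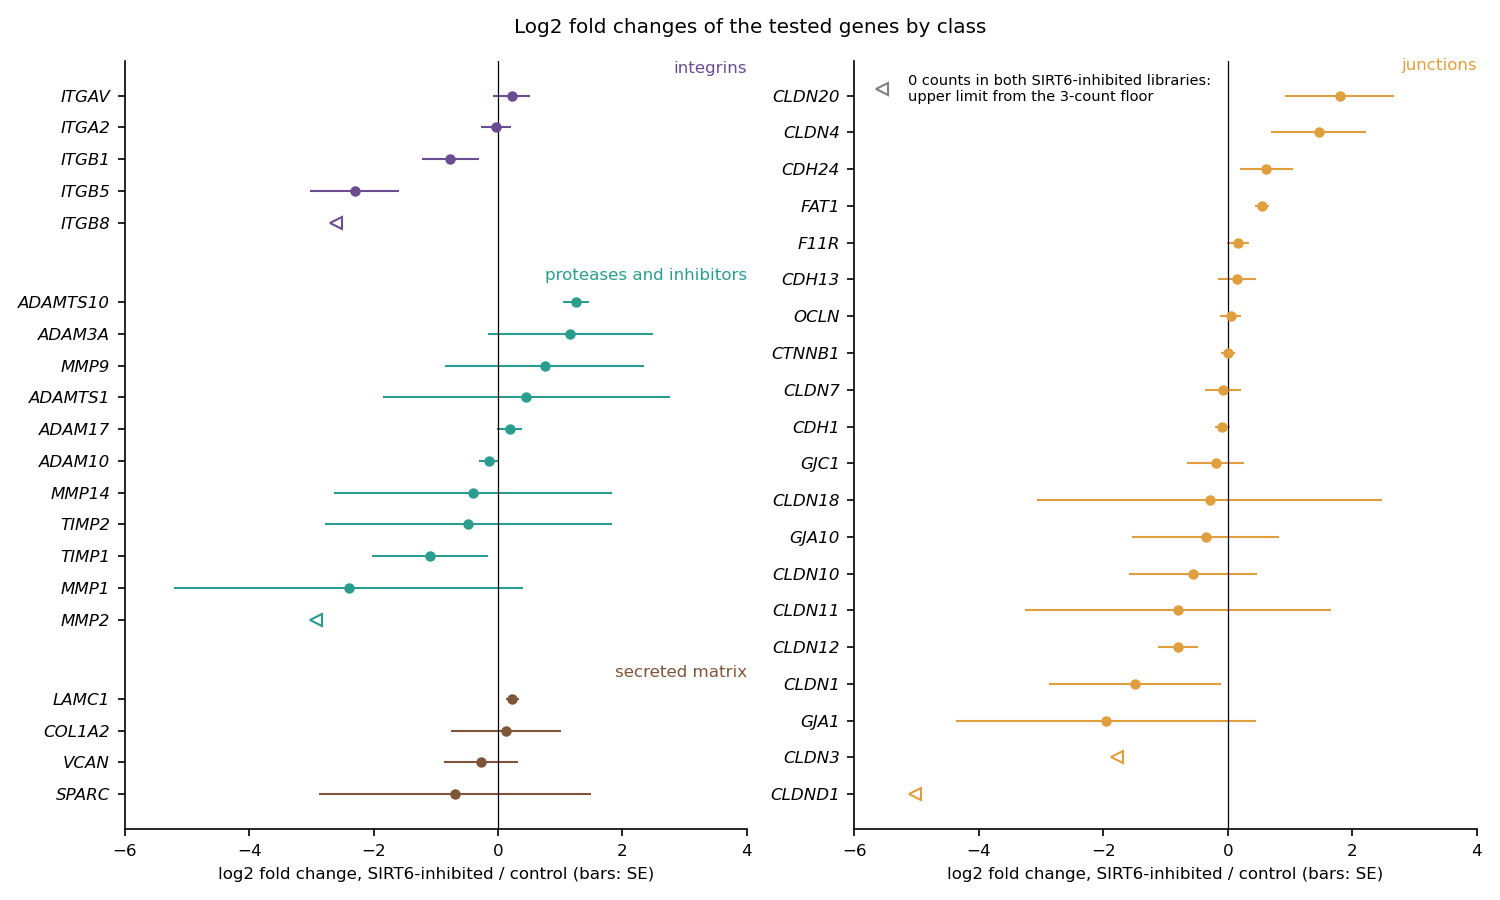
Log2 fold change of SIRT6-inhibited over control oocytes with its SE (edgeR) for the tested genes of each class, with 1 junction gene left out, and with open triangles for genes at 0 counts in both SIRT6-inhibited libraries, drawn at the limit set by a floor of 3 counts per library. Narrow bars that cleared 0 included those of ADAMTS10 (1.26, SE 0.21), FAT1 (0.55, SE 0.11) and LAMC1 (0.23, SE 0.11), and the beta integrins lie left of 0.

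Loss of signal in both SIRT6-inhibited libraries was followed over all detected genes. CLDND1, MMP2, ITGB8, CLDN3 and DCN, which are 5 of the 51 detected matrix and adhesion genes (9.80%), had counts in both controls and 0 in both SIRT6-inhibited libraries, where 3.18% of all 2923 detected genes did. The reverse pattern was found for 0 of the 51 genes and for 0.205% of all detected genes. At such counts, libraries of a group also parted. In the SIRT6-inhibited group, 11 of the 51 genes had 0 counts in 1 library and at least 10 in the other, among them SPARC, ADAMTS1, MMP14 and TIMP2, against 4 in the controls. Over all detected genes these patterns were found for 14.5% and 10.8%. Setting genes at 0 in both libraries of a group to their bound left the medians of all 4 classes as given.

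The label of the samples was checked with marker genes. Listed markers are those that the table holds, so the check is partial. They were 11 of 16 chosen oocyte markers, 21 of 26 for cumulus and granulosa and 8 of 10 for theca and stroma. For endothelium they were 3 of 6, and for blood and immune cells 7 of 10. All 11 listed oocyte markers were detected in every library, with summed levels of 48465 and 52593 normalized CPM in the controls and 48287 and 48403 after SIRT6 inhibition, and H1FOO, the oocyte linker histone, as the most abundant. Of the 11 oocyte markers, 4 had a log2 fold change above 0 and 7 below, with a median of -0.27, and groups were apart for 2 lower and 0 higher. These 2, GDF9 and ZP2, were lower in both SIRT6-inhibited libraries, with log2 fold changes of -1.65 (SE 0.50, edgeR adjusted p = 0.469) and -0.37 (SE 0.14, edgeR adjusted p = 0.510). Without control library 2 they were at -0.95 and -0.26, and without SIRT6-inhibited library 2 ZP2 was at -0.23. GDF9 passed adjustment with a replicate block (edgeR adjusted p = 0.00398), though the library numbers do not establish a pairing. It also passed without the filter on low counts (edgeR adjusted p = 6.71e-26), where its SE was 0.15, against 0.50 with the filter. That SE is small beside the spread of its counts, 6128 and 10613 in the controls and 3147 and 1887 after SIRT6 inhibition. In DESeq2 the SE of GDF9 was 0.83 and its unadjusted p-value was just over 0.05. Because several low genes above are known from cumulus and connective tissue cells, other cell types were looked at too. Of 21 listed cumulus and granulosa markers, 15 were detected, with sums of 209 and 165 normalized CPM in the controls and 115 and 150.0 after SIRT6 inhibition. The most abundant was PGR, with 66.5 and 60.2 normalized CPM in the controls and 23.3 and 57.9 after SIRT6 inhibition, and FSHR, LHCGR, AMH, AMHR2, TNFAIP6 and AREG had 0 counts in all libraries. Other markers of this list, named after their values were seen, were detected: INHBA had 161 and 95 counts in the controls and 62 and 102 after SIRT6 inhibition, in normalized CPM below both controls in either library. CYP11A1 went the other way, with 0 and 9 counts in the controls and 13 and 56 after SIRT6 inhibition. PTGS2 had 22 and 12 counts in the controls and 0 in both SIRT6-inhibited libraries. Of the 9 tested markers of this list, 7 had a log2 fold change below 0, and groups were apart for 4 lower and 1 higher, with a median of -0.60. Over all tested genes 22.2% were apart and lower and 17.9% apart and higher. Of 8 listed theca and stroma markers, 5 were detected, with sums of 25.3 and 44.2 normalized CPM in the controls and 18.3 and 4.37 after SIRT6 inhibition. Here PDGFRA was the most abundant, with 64 and 109 counts in the controls and 0 and 12 after SIRT6 inhibition, and CYP17A1, INSL3 and THY1 were at 0. The whole sum of SIRT6-inhibited library 1 came from POSTN, with 39 and 2 counts in the controls and 59 and 0 after SIRT6 inhibition, and NR2F2 had 14 and 16 counts in the controls and 0 in both SIRT6-inhibited libraries. Of 3 endothelial markers only PECAM1 was detected, at 14.9 and 31.2 normalized CPM in the controls and 23.9 and 19.4 after SIRT6 inhibition, with VWF and ENG at 0. CD68, with 4 counts in control library 2, was the only one of 7 blood and immune markers with any count, and LYZ, TYROBP, CD3E, CD14, HBB and AIF1 were at 0. The sums of the cumulus and stroma lists were lower in both SIRT6-inhibited libraries. The sum of the oocyte list was also below both controls, though only just below control library 1. The part of other cells in the values of matrix and adhesion genes was not tested. In bulk RNA, fewer cells of a type and less RNA per cell cannot be told apart.

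Further matrix and adhesion genes outside the name rule were read from a separate list of 195 genes, of which 46 were in the table and 28 tested. Their median log2 fold change was 0.05, and edgeR gave 3 (10.7%) an unadjusted p-value under 0.05, 3 of them lower and 0 higher. Over all tested genes the share was 9.05%, with 5.99% lower and 3.06% higher. Of the 3 lower genes, EPCAM and SDC2 are described here. EPCAM, an epithelial adhesion molecule, had 285 and 196 normalized CPM in the controls and 126 and 152 after SIRT6 inhibition, a log2 fold change of -0.79 (SE 0.26, edgeR adjusted p = 0.487), which without control library 1 was -0.50 with an unadjusted p-value over 0.05. SDC2, the heparan sulfate proteoglycan syndecan 2, had 265 and 241 normalized CPM in the controls and 171 and 186 after SIRT6 inhibition. These groups were apart as well, by a log2 fold change of -0.50 (SE 0.20, edgeR adjusted p = 0.532), and SDC2 lost its unadjusted p-value under 0.05 whichever library was left out (-0.57 to -0.44). The genes of this list with the most counts were close between groups, with log2 fold changes of 0.06 (SE 0.10) for FYN, 0.09 (SE 0.11) for the collagen receptor DDR1, 0.11 (SE 0.15) for the focal adhesion gene VCL and 0.05 (SE 0.14) for CD81. VCL turned to -0.041 and CD81 to -0.030 without SIRT6-inhibited library 1, and FYN to -0.0026 with library totals only. CTNNBL1 and ITGB1BP2 fit the name rule but encode a splicing-associated protein and a muscle integrin-binding protein, and were counted among the 78 but in no class. CTNNBL1 had a log2 fold change of 0.16 (SE 0.18, edgeR adjusted p = 0.956) and ITGB1BP2 had 0 counts in all 4 libraries.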

How the data were processed

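The authors deposited whole-number read counts per gene symbol for 4 libraries, without normalization. The submitters' processing notes name TopHat2 2.0.13, Cufflinks 2.2.1, Cuffnorm and Cuffdiff and the builds mm10 and susScr11, with no role, and the counting tool, annotation and strand setting are not given in the sources used here. Columns were matched to samples by the group and number in their names. Of the 4381 symbols, 4299 (98.1%) matched RefSeq genes of Sscrofa11.1, the assembly behind susScr11, and all 78 members did. Of the matched symbols 91.6% had a curated RefSeq transcript, against 19.3% of all 20663 protein-coding RefSeq genes. Genes outside the table were not seen. Positions are those of RefSeq and not of the counting. Counts were fitted on the whole table with R 4.3.3 and edgeR 4.0.16: filterByExpr (minimum count 10, minimum total 15), TMM factors, and a quasi-likelihood F test, p-values being adjusted over 2387 genes by the Benjamini-Hochberg method. The standard error (SE) is the log2 fold change divided by the square root of the F statistic. The common biological coefficient of variation was 0.651. An exact permutation test of 2 against 2 libraries cannot go below 0.333 and was not used. Alternatives were RLE factors, library totals only, no filter, at least 10 counts in every library, a replicate block, DESeq2 1.42.0, limma-voom (limma 3.58.1) and leaving out each library.

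Genes were named by rule: tested ADAM, ADAMTS, MMP and TIMP genes, members with an unadjusted p-value under 0.05, in each class the 4 with the highest mean and the 2 higher and 2 lower non-overlapping genes with the largest fold change, members at 0 in both libraries of a group with at least 10 counts in each of the other, corresponding genes of the other lists, and name matches outside the families, of which a few are not given. Further members, such as DCN, the low collagens, F11R, CLDN7, the connexins and genes at 0, were named after their values were seen. The members and lists were chosen with earlier results of these data known.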

Additional observations from a re-analysis of the deposited data

How the results depend on the processing

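Of the 30 members that the naming rule took and that had a fitted value, 18 kept their sign in all alternatives. In the alternatives with all 4 libraries, ADAMTS10, FAT1 and ITGB5 kept an unadjusted p-value under 0.05 in 7 of 7. CLDND1 kept it in 6 of the 6 in which it was fitted. With RLE factors CTNNB1 turned to 0.017. With library totals only OCLN turned to -0.017, FYN to -0.0026, CD81 to -0.0080 and H1FOO to -0.048. Without the filter 3 members and 43 genes passed adjustment (0 and 0 before), ADAMTS10 was at 1.25, and the medians were -0.41 for proteases, -0.40 for integrins and -0.20 for junctions, over more genes. When each library had to hold 10 counts, the medians were 0.13 for secreted matrix, 0.027 for proteases, -0.40 for integrins and 0.025 for junctions, over fewer genes, CTNNB1 was at 0.0016, and 2 genes passed adjustment. With DESeq2, 3 members and 37 genes passed, with ADAMTS10 at 1.28 and CTNNB1 at 0.017. With limma-voom the protease median was -1.20, ADAMTS1 -2.46, ITGA2 0.014 and PECAM1 0.041. Other causes were not tested.

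With a replicate block 4 members had an unadjusted p-value under 0.05, without CLDN12 and MMP2, and 6 genes passed adjustment, the protease median was -1.13, ADAMTS1 -1.87 and CTNNB1 0.0010. Deviations of libraries with the same number correlated at -0.112, and the numbers do not establish a pairing. A crossed block, chosen after seeing the data, gave 5 members and 241 genes under 0.05 and 2 genes past adjustment.

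As each library was left out, 0 to 2 members passed adjustment, genes under 0.05 numbered 216 in all libraries and 104 to 315, and genes past adjustment 0 to 77. Medians ran from -0.22 to 0.19 for secreted matrix, -0.15 to 0.26 for proteases, -1.26 to -0.22 for integrins and -0.073 to 0.040 for junctions. Log2 fold changes ran from 1.20 to 1.31 for ADAMTS10, -7.14 to 1.46 for ADAMTS1, -8.29 to 5.74 for MMP1, -7.26 to 0.58 for MMP14, -7.07 to 0.50 for TIMP2, -1.49 to 0.38 for VCAN, -0.14 to 0.45 for COL1A2, -7.98 to 0.31 for SPARC, -0.22 to 0.16 for ITGA2, -0.073 to 0.49 for ITGAV, -0.10 to 0.10 for CTNNB1, -0.19 to 0.015 for CDH1, -0.16 to 0.23 for OCLN, -0.041 to 0.25 for VCL, -0.030 to 0.13 for CD81, -0.11 to 0.12 for H1FOO and -0.53 to 0.53 for PECAM1. Fits without a SIRT6-inhibited library take the spread from the controls alone, and fits without a control library take it from the SIRT6-inhibited libraries alone. In ADAMTS1, MMP1, MMP14, TIMP2 and SPARC, 0 counts in some libraries set the ends of these ranges. The cause of the shifts was not tested. Depth limits what can be told from 0, at 3 counts.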

Other observations

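CD9, a tetraspanin of the egg surface that acts in fusion with sperm, was on the list of further adhesion genes and is named after its values were seen. It had 0 and 5 counts in control libraries 1 and 2 and 0 in both SIRT6-inhibited libraries, while the related tetraspanin CD81 had 531 and 525 normalized CPM in the controls and 576 and 517 after SIRT6 inhibition.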
